A study of Mus musculus with 17 samples.

Results

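Hepatic de novo lipogenesis was followed through 10 genes on 2-color Agilent arrays of mouse liver. These are Acly, Acaca, Acacb, Fasn, Elovl6, Scd1, Me1, Srebf1, Mlxipl, and Thrsp, taken as all probes that carry 1 of these symbols in the deposited table of log2 ratios. They had 18 of the 41174 probes of the table, and all 18 were among the 34650 probes tested, so that all 10 genes are among the 19350 genes tested. Male mice, C57BL/6N by the sample labels and C57BL/6J by the methods, formed 4 groups, and their age is not given in the sources used here. The 4 chow mice were fed chow and gavaged once with maltose, the 4 1B mice were fed chow and gavaged once with ethanol at 5 g/kg, the 4 HFD mice were fed a high-fat diet (60% of calories as fat) for 3 months and gavaged with maltose, and the 5 HFD+1B mice were fed the same HFD and gavaged with ethanol. The sample labels give 3 months of diet for the chow and 1B mice as well. All livers were taken 9 hours after the gavage, and the maltose control received isocaloric dextrin-maltose, so the comparisons with chow or HFD set ethanol against an equal load of carbohydrate calories. Every array held the Cy5-labeled liver cDNA of 1 mouse and, labeled with Cy3, the same reference RNA on each array, and values are log2 ratios of liver to reference.

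In de novo lipogenesis the liver turns carbon from carbohydrate, or other sources of acetyl-CoA, into fatty acids. ATP citrate lyase makes cytosolic acetyl-CoA, acetyl-CoA carboxylase turns it into malonyl-CoA, and fatty acid synthase builds palmitate from both with NADPH, after which elongases and desaturases lengthen and desaturate the chain. Transcription of these enzymes is driven by SREBP-1c under insulin and by ChREBP under glucose and fructose metabolites, and by LXR and thyroid hormone, and the pathway is known for its part in fatty liver of dietary and alcoholic origin.

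Promoters of 5 genes are shown as examples of different responses: Acly, Fasn, and Thrsp, which rose with ethanol on both diets with no overlap between mice, Elovl6, whose response differed between diets, and Mlxipl, which encodes a regulator of the pathway. Each line gives the 250 bases before an annotated start site, 5′ to 3′, from RefSeq (GRCm38.p6), with capitals for letters that match a motif searched on both strands.
Acly, chr11:100528001-100528250, minus strand: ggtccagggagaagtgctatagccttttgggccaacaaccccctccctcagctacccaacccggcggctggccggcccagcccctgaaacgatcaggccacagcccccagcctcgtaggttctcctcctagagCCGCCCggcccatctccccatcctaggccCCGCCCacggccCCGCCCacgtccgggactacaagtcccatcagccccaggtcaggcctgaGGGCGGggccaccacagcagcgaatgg
Fasn, chr11:120824548-120824797, minus strand: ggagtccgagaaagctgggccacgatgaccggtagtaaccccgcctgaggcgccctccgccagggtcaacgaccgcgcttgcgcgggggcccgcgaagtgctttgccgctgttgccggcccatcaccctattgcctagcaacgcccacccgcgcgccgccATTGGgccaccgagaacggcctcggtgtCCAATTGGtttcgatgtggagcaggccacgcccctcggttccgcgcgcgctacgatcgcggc
Thrsp, chr7:97417551-97417800, minus strand: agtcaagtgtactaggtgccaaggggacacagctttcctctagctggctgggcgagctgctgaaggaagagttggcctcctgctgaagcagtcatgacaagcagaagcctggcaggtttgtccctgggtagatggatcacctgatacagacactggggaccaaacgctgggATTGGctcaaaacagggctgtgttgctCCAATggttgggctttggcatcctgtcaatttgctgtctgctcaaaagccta
Elovl6, chr3:129532136-129532385, plus strand: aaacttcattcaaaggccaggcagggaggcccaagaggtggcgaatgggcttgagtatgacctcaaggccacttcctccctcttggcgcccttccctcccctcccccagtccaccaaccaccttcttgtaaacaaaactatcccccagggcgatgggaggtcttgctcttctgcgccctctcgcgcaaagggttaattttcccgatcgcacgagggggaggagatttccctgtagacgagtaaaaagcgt
Mlxipl, chr5:135089640-135089889, plus strand: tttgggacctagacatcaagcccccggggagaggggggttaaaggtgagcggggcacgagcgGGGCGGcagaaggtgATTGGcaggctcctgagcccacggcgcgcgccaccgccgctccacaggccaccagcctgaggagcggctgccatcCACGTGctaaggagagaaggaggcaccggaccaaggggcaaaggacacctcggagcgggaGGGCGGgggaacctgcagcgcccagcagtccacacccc
Mlxipl, chr5:135106641-135106890, plus strand: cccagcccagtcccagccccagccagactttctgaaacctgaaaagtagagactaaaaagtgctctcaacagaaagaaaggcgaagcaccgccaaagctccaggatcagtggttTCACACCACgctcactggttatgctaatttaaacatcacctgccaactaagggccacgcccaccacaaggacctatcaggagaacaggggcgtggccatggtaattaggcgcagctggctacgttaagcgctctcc
The first motif was the CCAAT box, searched as its own letters. A GC box was taken as the letters GGGCGG on either strand of the window. An E box, the core of the carbohydrate response element to which ChREBP binds, was taken as CACGTG. For the sterol regulatory element the letters were TCACNCCAC. The last motif was direct repeat 4, the LXR element in its consensus form. Windows were found for 9 of the 10 genes, 13 windows in all. Fasn held 3 matches to the first, of which a pair overlap on opposite strands in the run CCAATTGG, Thrsp held 2, and Acly held 4 GC boxes and none of the first. The first was present in 7 of the 13 windows, in 6 of the 9 genes, against 33.8% of 32851 promoter windows of the same length. GC boxes were present in 5 of 13 windows against 32.7% of all windows. The E box and the sterol regulatory element each matched 1 window, both of Mlxipl, at different start sites (6.02% and 1.05% of all windows), and the direct repeat matched none of the 13 (0.0152%). In the Elovl6 window none of these letters were found. A match of letters is a description of the window and not a bound site.

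Median Cy5 signals of the 17 arrays lay between 63 and 158 intensity units. Every HFD array, with a median of 98 or less, was dimmer than every chow array, at 99 or more. Arrays of ethanol-treated mice overlapped with both, running from 69 to 134 for 1B and from 90 to 158 for HFD+1B. What this difference in signal contributed to HFD minus chow or HFD+1B minus HFD was not tested. Of the lipogenesis probes, 17 were well above background on all 17 arrays and the dimmer Acly probe on 16, and none was saturated on any array. Spots with an outlier mark from the scanner were dropped, which removed the brightest Acly probe on 4 arrays, and Scd1, Thrsp, and Elovl6 on 1 array each. The array of chow mouse 1 stood apart with 1063 missing values among the probes tested, against 4 to 434 on the other arrays, and its part in the comparisons with chow was tested only by leaving it out. Arrays lay on 5 slides of up to 4 mice, each slide with mice of several groups. The 3 ribosomal RNA probes stood apart in HFD: their mean log2 ratio relative to chow ran from -4.08 to -2.41 among the HFD mice, compared with -1.47 to -0.31 for 1B and -1.42 to 0.64 for HFD+1B. The part of this shift in any comparison with the HFD group was not tested.

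Ethanol on chow raised most of the pathway. In 1B compared with chow, 7 of the 10 genes were higher at a Benjamini-Hochberg adjusted p of 0.05 or less in limma (Elovl6, Fasn, Acly, Thrsp, Acacb, Me1, and Mlxipl) and 0 were lower, whereas 2.09% of all genes tested were higher and 2.05% lower. The median log2 difference of the 10 genes was 1.34, against 0.01 for all genes. For 6 of them every 1B mouse with a value lay above every chow mouse, a separation seen in 6.15% of all genes. Scd1, Acaca on its brightest probe, and Srebf1 did not pass. In bulk liver RNA, more cells that express a gene and more RNA per cell cannot be told apart.

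HFD without ethanol moved few of the genes, at a rate near that of all genes (11% passed in either direction). In HFD compared with chow, 1 of the 10 genes passed, Acacb, against 4.5% of all genes that were higher and 6.48% that were lower, and the median log2 difference of the 10 was 0.39. Acacb was also the only 1 of the 10 in which all HFD mice lay above all chow mice (9.02% of all genes). Scd1 differed by 1.26, nearly as much as Acacb, but its chow mice were spread widely and it did not pass.

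Ethanol on HFD raised a smaller set. In HFD+1B compared with HFD, 4 of the 10 genes were higher (Thrsp, Acly, Fasn, and Mlxipl) and 0 lower, against 11% of all genes that were higher and 8.4% that were lower, and the median log2 difference was 0.50. Acly, Fasn, Thrsp, and Scd1 had every HFD+1B mouse with a value above every HFD mouse, and 8.32% of all genes had that order. Whether the ethanol effect differed between diets was tested by the interaction, the difference of HFD+1B and HFD minus that of 1B and chow. It passed for 1 of the 10 genes, Elovl6, and was negative there, against 1.72% of all genes with a negative interaction. With slide as a block, Acacb (-1.39, adjusted p 0.0176) and Mlxipl (-0.52, adjusted p 0.0483) passed as well, for 3 genes in all. The estimate was negative in 8 of the 10 genes, with a median of -0.49.

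Both exposures together left 7 of the 10 genes above chow (Thrsp, Scd1, Fasn, Acly, Acacb, Me1, and Acaca), against 8.89% of all genes that were higher and 7.41% that were lower, with a median log2 difference of 1.23. In 4 of them, Acly, Fasn, Scd1, and Thrsp, no HFD+1B mouse overlapped with chow (8.16% of all genes). Compared with 1B, 2 of the 10 genes were lower in HFD+1B, Elovl6 and Mlxipl, and 5.15% of all genes were. In both, no HFD+1B mouse overlapped with 1B, an order held by 5.78% of all genes. The comparisons share mice: 1B, HFD, and HFD+1B were all set against the same chow arrays, and HFD against both chow and HFD+1B.

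**Figure D1:**
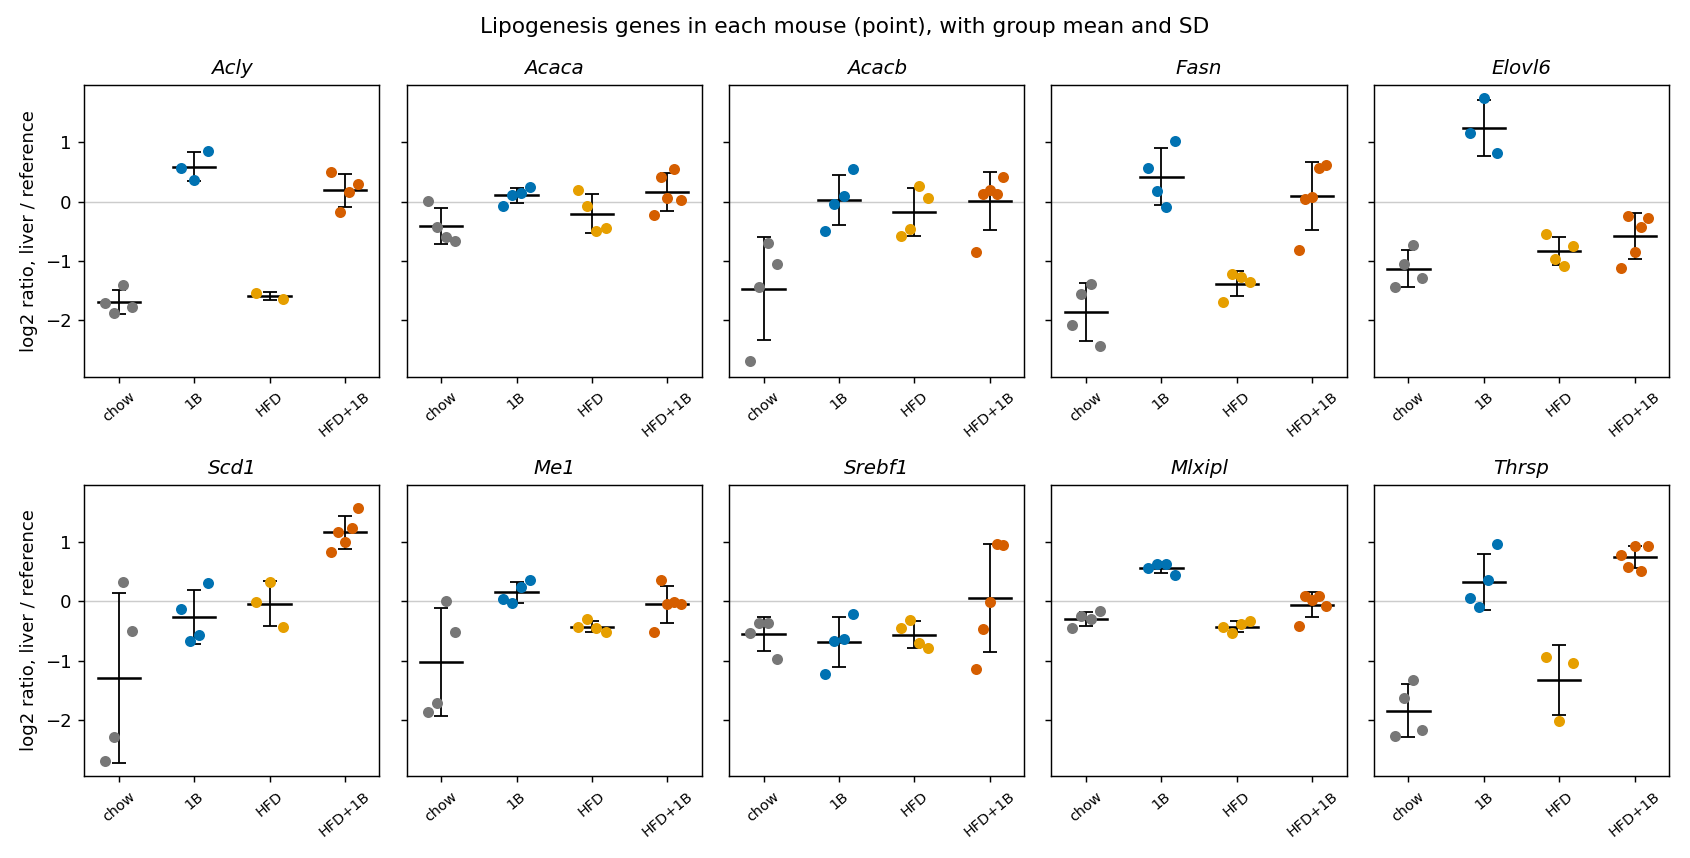
Log2 ratio of liver to reference (y axis) of the brightest probe of each gene in each mouse (points) by group (x axis), with the group mean (long bar) and SD (whiskers). Acly, Fasn, and Thrsp were low in chow and HFD and high in both ethanol groups, Elovl6 and Mlxipl were highest in 1B, and Scd1 was highest in HFD+1B.

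Acly, ATP citrate lyase, had log2 ratios of -1.71, -1.89, -1.41, and -1.78 in chow mice 1 to 4, 0.57, 0.36, and 0.85 in 1B mice 1 to 3, -1.55 and -1.65 in HFD mice 2 and 3, and 0.49, -0.17, 0.16, and 0.29 in HFD+1B mice 2 to 5. Both ethanol groups lay well above both maltose groups, with no overlap. The rise with ethanol was 2.29 on chow (4.89-fold, SE 0.16, adjusted p 7.03e-06) and 1.79 on HFD (3.47-fold, SE 0.19, adjusted p 5.72e-05), where the HFD mean rests on 2 mice. HFD without ethanol differed from chow by 0.10 (95% interval -0.30 to 0.49, adjusted p 0.796). Within slides, 1B exceeded chow by 2.24 to 2.28 on 3 of 3 slides. With the marked spots kept, so that all 17 mice entered, the ethanol effects were 2.39 and 1.51, and HFD+1B was then lower than 1B by -0.72 (adjusted p 0.0408), compared with -0.40 (adjusted p 0.160) without them.

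Acetyl-CoA carboxylase, which commits acetyl-CoA to fatty acid synthesis, is made by Acaca in the cytosol and by Acacb, whose product at the mitochondrion restrains fatty acid oxidation. The Acaca probe with the brightest signal lay between -0.66 and 0.01 in the chow mice and between -0.07 and 0.24 in 1B. On HFD it lay between -0.50 and 0.20 with maltose and between -0.23 and 0.56 with ethanol. Its groups overlapped in every comparison. It differed from chow by 0.52 in 1B (SE 0.18, adjusted p 0.158) and was higher by 0.58 in HFD+1B (SE 0.17, adjusted p 0.0308). That call did not hold with slide as a block (0.55, adjusted p 0.0511), with Cy5 alone (0.49, adjusted p 0.330), or by the adjusted Tukey test (adjusted p 0.282), nor when chow mouse 2, 3, or 4 or HFD+1B mouse 2 or 4 was left out (adjusted p 0.0666 to 0.109).

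Acacb had log2 ratios of -2.69, -1.44, -0.69, and -1.06 in chow mice 1 to 4, and -0.49, -0.04, 0.09, and 0.54 in 1B mice. The HFD mice had -0.59, -0.46, 0.26, and 0.06, and the HFD+1B mice -0.85, 0.14, 0.20, 0.13, and 0.42. Chow mouse 1 was the lowest of all mice, and HFD+1B mouse 1 was the only ethanol-treated mouse within the chow range. Compared with chow, the gene was higher in the 1B group by 1.50 (SE 0.35, adjusted p 0.0217), with HFD alone by 1.29 (SE 0.35, adjusted p 0.0278), and with both by 1.48 (SE 0.34, adjusted p 0.00535), and ethanol on HFD made a difference of 0.19 (95% interval -0.52 to 0.89). Without chow mouse 1 the difference was 1.09 in 1B (adjusted p 0.0567) and 0.88 in HFD (adjusted p 0.0845), and the call in 1B was also lost without 1B mouse 3 (1.47, adjusted p 0.0526) or 4 (1.32, adjusted p 0.0736). In HFD it was lost without chow mouse 2 (1.30, adjusted p 0.0527), HFD mouse 3 (1.14, adjusted p 0.0928), or HFD mouse 4 (1.21, adjusted p 0.0730). None of the 3 differences from chow passed with Cy5 alone (adjusted p 0.0983 to 0.253) or by the adjusted Tukey test (adjusted p 0.109 to 0.356), and that in 1B did not pass with the authors' table (1.59, adjusted p 0.0592).

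Fasn, fatty acid synthase, had log2 ratios of -2.08, -1.55, -1.38, and -2.44 in chow mice 1 to 4, and 0.58, 0.18, -0.08, and 1.03 in 1B mice. With HFD they were -1.69, -1.22, -1.27, and -1.36, and with both exposures -0.82, 0.04, 0.07, 0.57, and 0.62. All ethanol-treated mice lay above all maltose-treated mice, with HFD+1B mouse 1 the nearest to them. The rise with ethanol was 2.29 on chow (4.89-fold, SE 0.29, adjusted p 1.64e-04) and 1.48 on HFD (2.79-fold, SE 0.28, adjusted p 0.00159). The interaction of -0.81 did not pass (95% interval -1.65 to 0.04, adjusted p 0.276). HFD without ethanol differed from chow by 0.48 (SE 0.29, adjusted p 0.318). Ethanol mice exceeded maltose mice on every slide that held both, by 1.30 to 2.66 on chow and 0.88 to 1.92 on HFD. The second Fasn probe gave 2.38 and 1.33 for the same comparisons, and both passed.

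Elovl6 and Scd1 act on the palmitate that Fasn makes, Elovl6 by elongating it to stearate and Scd1 by introducing the double bond of oleate and palmitoleate. Elovl6 had log2 ratios of -1.45, -1.06, -0.73, and -1.29 in chow, and 1.17, 1.75, and 0.82 in 1B mice 2 to 4. HFD mice were at -0.54, -0.97, -1.09, and -0.76, and HFD+1B mice 1 to 5 at -1.12, -0.24, -0.85, -0.43, and -0.27. The 1B mice stood above all others, and the other groups overlapped. It rose with ethanol by 2.38 on chow (5.19-fold, SE 0.24, adjusted p 3.59e-05), the largest of the 10 rises, whereas on HFD the difference was 0.26 (95% interval -0.19 to 0.70, adjusted p 0.438). The interaction was -2.12 (SE 0.32, adjusted p 0.00296), and HFD+1B was lower than 1B by -1.83 (SE 0.23, adjusted p 1.11e-04) with no overlap. Within slides, HFD+1B was below 1B on 3 of 3 slides, by -1.98 to -1.25. Compared with chow, HFD+1B differed by 0.55 (adjusted p 0.0945), which passed without HFD+1B mouse 1 (0.69, adjusted p 0.0304) and with slide as a block (0.56, adjusted p 0.0398).

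Scd1 had log2 ratios of -2.70, -2.29, 0.33, and -0.51 in chow, -0.13, -0.67, -0.57, and 0.32 in 1B, -0.01, 0.33, and -0.43 in HFD mice 2 to 4, and 0.84, 1.17, 1.00, 1.25, and 1.58 in HFD+1B. All HFD+1B mice were above all others, and the chow mice spread from far below the 1B and HFD mice to near the top of both. The gene was higher in HFD+1B than in chow by 2.46 (5.50-fold, SE 0.45, adjusted p 0.00118). The steps between did not pass: 1.03 in 1B (adjusted p 0.345) and 1.26 in HFD (adjusted p 0.133) compared with chow, 1.20 for HFD+1B compared with HFD (adjusted p 0.101), and 1.43 compared with 1B (adjusted p 0.0545). Without chow mouse 3, the highest chow mouse, they were 1.57 (adjusted p 0.0488), 1.80 (adjusted p 0.0176), 1.20 (adjusted p 0.0371), and 1.43 (adjusted p 0.0148), and all passed. The comparison with 1B lay close to the threshold and passed in 6 of 14 other ways of processing (0.82 to 1.47 over all 14, adjusted p from 0.0382 to 0.530) and in 4 of 17 fits without 1 mouse. The interaction was 0.18 (95% interval -1.27 to 1.62), an interval too wide to show whether the response differed between diets.

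Me1, malic enzyme, a source of cytosolic NADPH, lay between -1.87 and -0.0019 in the chow mice and between -0.03 and 0.36 in 1B. On HFD it lay between -0.51 and -0.29 with maltose and between -0.51 and 0.37 with ethanol. Chow mice 1 and 2 were far below the rest, and chow mouse 3 lay within the 1B range. It was higher than chow by 1.18 in 1B (SE 0.30, adjusted p 0.0324) and 0.97 in HFD+1B (SE 0.28, adjusted p 0.0258), and the difference with ethanol on HFD was 0.37 (SE 0.28, adjusted p 0.395). The call in 1B was lost without chow mouse 1 (0.90, adjusted p 0.111) or 2 (0.95, adjusted p 0.108) and without any 1 of the 4 1B mice (1.11 to 1.24, adjusted p 0.0560 to 0.0879), and that in HFD+1B without chow mouse 1 (0.69, adjusted p 0.104) or 2 (0.74, adjusted p 0.107) or HFD+1B mouse 2 (0.87, adjusted p 0.0636). In HFD compared with chow Me1 differed by 0.60 (adjusted p 0.217), or by 0.94 without chow mouse 3 (adjusted p 0.0309). Neither call of Me1 held with Cy5 alone, with the authors' table, or by the adjusted Tukey test (adjusted p 0.0532 to 0.494). Median centring also lost the call in 1B (1.05, adjusted p 0.103).

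**Figure D2:**
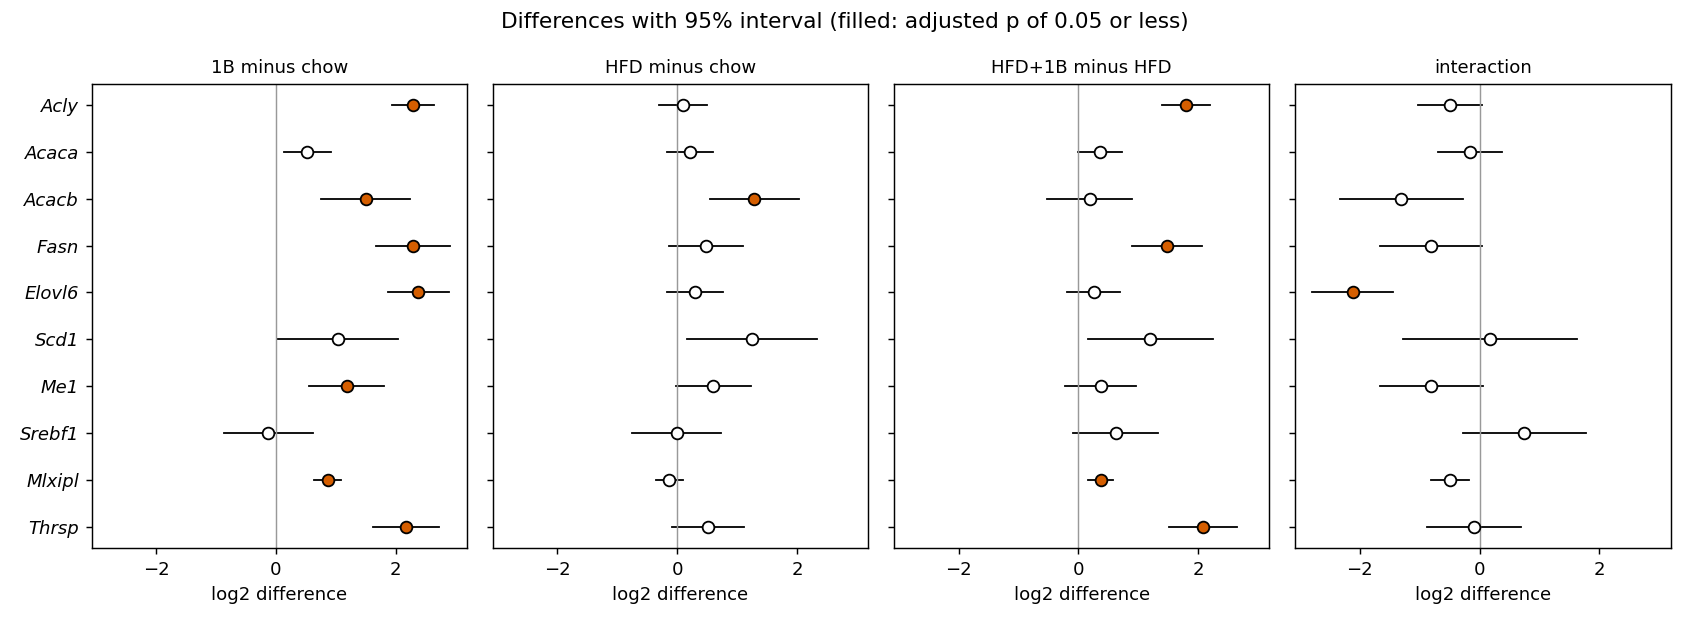
Log2 difference (x axis) of each gene (rows) in 4 comparisons, on the brightest probe. Points are fitted differences, bars 95% intervals, and filled points passed at an adjusted p of 0.05 or less. Filled points numbered 7 for 1B minus chow, 1 for HFD minus chow, 4 for HFD+1B minus HFD, and 1 for the interaction, where Elovl6 had -2.12.

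The regulators did not follow 1 pattern. Srebf1, which encodes SREBP-1, the insulin-responsive activator of the lipogenic enzymes, had log2 ratios of -0.53, -0.36, -0.36, and -0.97 in chow, and -1.23, -0.67, -0.63, and -0.21 in 1B mice. For HFD mice they were -0.45, -0.31, -0.71, and -0.78, and for HFD+1B mice 1 to 5 they were -1.15, -0.47, -0.01, 0.96, and 0.96. HFD+1B held both the highest mice and 1 of the lowest, with an SD of 0.92, against 0.22 to 0.42 in the other groups. The probe reads the gene as a whole and does not separate its 1a and 1c transcripts. Srebf1 differed from chow by -0.13 in 1B (95% interval -0.87 to 0.62, adjusted p 0.946) and by -0.01 in HFD (95% interval -0.75 to 0.74, adjusted p 0.994). With both exposures it differed by 0.62 from chow (adjusted p 0.265), 0.62 from HFD (adjusted p 0.217), and 0.74 from 1B (adjusted p 0.196). Without HFD+1B mouse 1 these were 0.92 (adjusted p 0.0340), 0.92 (adjusted p 0.0330), and 1.04 (adjusted p 0.0224), and all passed.

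Mlxipl encodes ChREBP, the activator that responds to glucose and fructose metabolites. Its log2 ratios were -0.46, -0.25, -0.30, and -0.17 in chow, and 0.56, 0.64, 0.64, and 0.45 in 1B mice. On HFD they were -0.44, -0.54, -0.39, and -0.34 after maltose and -0.42, 0.10, 0.02, 0.10, and -0.07 after ethanol. The 1B mice lay above all others, and HFD+1B mouse 1 fell among the HFD mice. The gene rose in 1B by 0.86 (1.82-fold, SE 0.11, adjusted p 1.38e-04), and within slides by 0.89 to 1.02 on 3 of 3 slides. HFD+1B values exceeded those of HFD by 0.37 (1.29-fold, adjusted p 0.0187), and were lower than in 1B by -0.63 (SE 0.10, adjusted p 7.94e-04), and differed from chow by 0.24 (adjusted p 0.142), which passed without HFD+1B mouse 1 (0.33, adjusted p 0.0143). The comparison with HFD no longer passed without HFD mouse 2 (0.33, adjusted p 0.0555) or HFD+1B mouse 4 (0.33, adjusted p 0.0525), nor with local background subtracted (0.36, adjusted p 0.0638), the mean of both probes (0.19, adjusted p 0.169), or the adjusted Tukey test (adjusted p 0.111). With median centring the rise was 0.61 (adjusted p 0.00751). With Cy5 alone none of the 3 Mlxipl calls held (adjusted p 0.0606 to 0.346). The interaction was -0.49 on this probe (adjusted p 0.0684) and -0.79 on the second Mlxipl probe (SE 0.16, adjusted p 0.0122).

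Thrsp encodes Spot 14, a small protein of lipogenic tissues that responds to thyroid hormone and carbohydrate. It had log2 ratios of -2.27, -1.63, -1.33, and -2.17 in chow, 0.05, -0.09, 0.37, and 0.98 in 1B, -0.94, -2.02, and -1.05 in HFD mice 2 to 4, and 0.79, 0.58, 0.94, 0.52, and 0.93 in HFD+1B. Every ethanol-treated mouse was above every maltose-treated mouse. The rise with ethanol was 2.18 on chow (4.52-fold, SE 0.26, adjusted p 1.38e-04) and 2.09 on HFD (4.25-fold, SE 0.27, adjusted p 1.22e-04), and HFD+1B exceeded chow by 2.60 (6.07-fold, SE 0.25, adjusted p 3.07e-06), the largest of the 10 in that comparison. With Cy5 alone the rise on HFD was 1.33 (adjusted p 0.0155). Its interaction was -0.09 (95% interval -0.88 to 0.70), and HFD differed from chow by 0.52 (SE 0.28, adjusted p 0.265).

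For 6 of the genes more than 1 probe was tested, and in several the probes differed in size. On Acaca the 3 dimmer probes rose in 1B by 1.12, 1.52, and 2.01 (adjusted p 9.77e-04, 0.00128, and 4.43e-05), all above the 0.52 of the brightest probe, and on HFD they were raised by ethanol by 0.85, 1.07, and 0.61 (adjusted p 0.00215, 0.00424, and 0.0475). Those 3 probes, in order, had a mean Cy5 intensity of 346, 334, and 320, against 731 for the brightest. Of these, A_52_P318040 also had a negative interaction (-1.40, SE 0.30, adjusted p 0.0166). The 60-base sequences of the brightest Acaca probe and of A_51_P439426, as deposited, are shown because they stand for 1 gene with unequal responses.
Acaca probe A_52_P595124: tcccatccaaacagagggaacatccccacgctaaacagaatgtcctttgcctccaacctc
Acaca probe A_51_P439426: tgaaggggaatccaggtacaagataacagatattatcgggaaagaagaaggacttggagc
The mean over all 4 Acaca probes was higher in 1B than in chow by 1.29 (adjusted p 5.75e-05) and lower in HFD+1B than in 1B by -0.47 (adjusted p 0.0317), where the brightest probe alone gave 0.06. Acacb passed with ethanol on chow and with HFD on its brightest probe only. Its other probe differed by 0.47 (adjusted p 0.451) and 0.06 (adjusted p 0.912), and the mean of both by 0.98 and 0.67, which passed. A dim second Acly probe, at a mean intensity of 97.1, was designed on a cDNA clone and differed by 0.48 in 1B (adjusted p 0.197) and by 0.42 with ethanol on HFD (adjusted p 0.0976). With the mean of both Acly probes the ethanol effects were 1.34 on chow and 0.77 on HFD, smaller than on the brightest probe alone, and both passed. The second Mlxipl probe gave 0.81 in 1B (adjusted p 3.85e-04) but 0.02 for HFD+1B compared with HFD (adjusted p 0.929), so the small rise there rests on 1 probe. Me1 gave 1.44 on its other probe in 1B (adjusted p 0.0132). For HFD+1B compared with chow, the other probes of Acly (0.21, adjusted p 0.502), Acacb (0.54, adjusted p 0.155), and Me1 (0.90, adjusted p 0.0623) did not pass. Both Fasn probes and all 4 Acaca probes passed there. Over all 18 probes, 13 were raised by ethanol on chow (1.84% of all probes were higher), 1 by HFD (3.88%), and 8 by ethanol on HFD (9.92%).

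**Figure D3:**
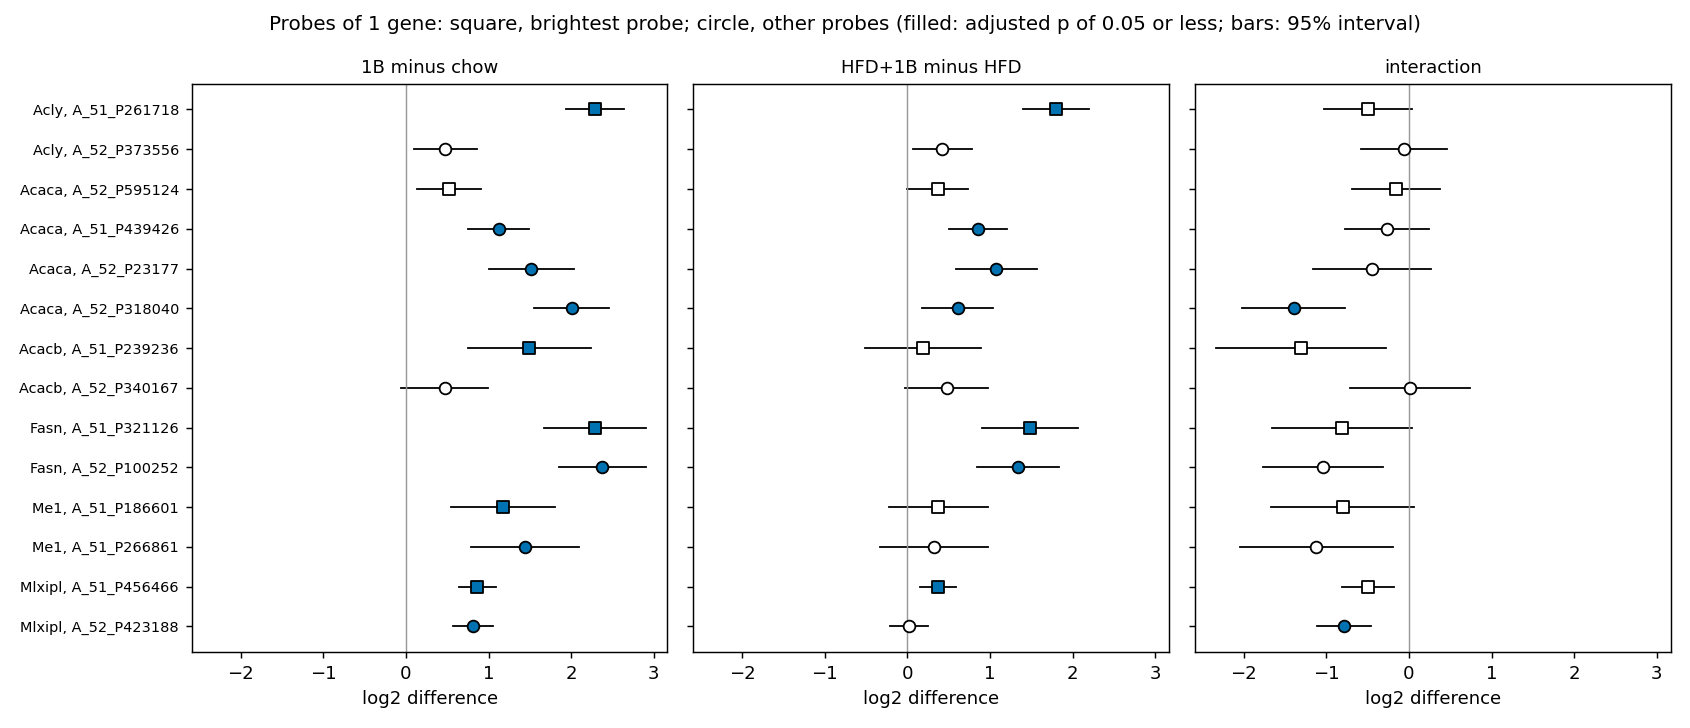
Log2 difference (x axis) of every probe of the 6 genes with more than 1 probe (rows), for ethanol on chow, ethanol on HFD, and the interaction. Squares are the brightest probe of a gene, circles its other probes, bars 95% intervals, and filled symbols passed. Fasn probes agree within their intervals in each panel, whereas Acaca in 1B runs from 0.52 to 2.01.

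In chow, 1B, and HFD+1B some mice were often the lowest or highest of their group. Chow mouse 1 was the lowest of its group in 6 of 10 genes and chow mouse 3 the highest in 7, 1B mouse 4 was the highest in 7 of 9 genes with a value, and HFD+1B mouse 1 the lowest in 8 of 9. Chow mouse 1, whose array had the most missing values, and HFD+1B mouse 1 lay on the same slide. On that slide 1B mouse 1 was the lowest in 3 of 9 genes and HFD mouse 1 in 2 of 7. The same counts over all genes were not made, so whether whole arrays were shifted was not tested. Over 17 arrays, and as a description only, the Fasn log2 ratio had a Pearson r of 0.92 with Acly (13 arrays), 0.89 with Thrsp (16 arrays), 0.74 with Mlxipl, and 0.41 with Srebf1. The non-member genes most like Fasn by r were Gpi1 (0.957), Pdhb (0.956), Rpia (0.953), Atg16l2 (0.949), and Tgfbr2 (0.939). Gpi1 and Rpia belong to glycolysis and the pentose phosphate pathway, and Pdhb is a subunit of pyruvate dehydrogenase. The genes most like Srebf1 were Mrc2 (0.861), Map4k2 (0.861), Svil (0.846), Sh2d3c (0.841), and E2f2 (0.830), none of which is on the lists of lipid metabolism used here. Arrays share the groups, the reference, and the normalization, so r mixes differences between groups with differences among mice of a group. Srebf1 passed in no comparison, and its HFD+1B mice spread from -1.15 to 0.96 (SD 0.92). The part of each in r was not tested.

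Of the pathways that feed or extend lipogenesis, glycolysis and NADPH supply changed with it. In 1B compared with chow 8 of its 15 genes were higher and 1 lower, with a median of 0.78 (2.09% of all genes were higher). Pklr, liver pyruvate kinase and a classic ChREBP target, rose by 2.34 (SE 0.33, adjusted p 4.12e-04). On HFD ethanol raised 5 of the 15 (11% of all genes), among them Gpi1 (1.35, adjusted p 0.00145), and in HFD compared with chow 3 were higher (4.5% of all genes), with Pgd (0.90, adjusted p 0.0300) and Khk (0.56, adjusted p 0.0193) the largest. In HFD+1B compared with chow 11 were higher (8.89% of all genes) and 1 lower.

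Of 12 other desaturases and elongases, 0 were higher and 2 lower in 1B, Elovl2 (-0.99, SE 0.12, adjusted p 1.38e-04) and Fads2 (-0.87, SE 0.21, adjusted p 0.0257), both of which act on polyunsaturated fatty acids. In HFD 4 were higher, led by Elovl5 (1.98, SE 0.27, adjusted p 3.43e-04) and Fads1 (0.95, adjusted p 0.00132), and on HFD ethanol lowered Elovl2 (-0.55, adjusted p 0.00376) and Fads1 (-0.50, adjusted p 0.0256) and raised 1, Scd3 (0.41, adjusted p 0.0230), a desaturase named after its value was seen. Scd3 also had a positive interaction (0.73, adjusted p 0.0264). The shares of all genes higher and lower were 2.09% and 2.05% in 1B and 4.5% and 6.48% in HFD. They were 11% and 8.4% with ethanol on HFD, and 1 raised and 2 lowered of 12 there are not far from them. Among 13 genes of citrate and acyl-CoA supply, 0 were higher in any of these 3 comparisons, which in a list of 13 is not far from these shares. Acsl1, a long-chain acyl-CoA synthetase, was lower with ethanol on chow (-1.08, adjusted p 0.0113) and on HFD (-1.06, adjusted p 0.00415), and Mlycd, which degrades malonyl-CoA, was lower with ethanol on HFD (-0.81, adjusted p 0.00448).

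Of 22 regulators of lipogenesis tested (23 listed), ethanol on chow raised 2 and lowered 2, HFD raised 1 and lowered 3, and ethanol on HFD raised 3 and lowered 2. Of all genes, 2.09% and 2.05%, 4.5% and 6.48%, and 11% and 8.4% were higher and lower in these comparisons, in that order, and the number raised by HFD and both numbers for ethanol on HFD were near these shares. Insig1, which holds the SREBP escort protein in the endoplasmic reticulum and is itself an SREBP target, was lower than chow by -1.65 in 1B (SE 0.38, adjusted p 0.0183) and by -2.99 in HFD (7.94-fold lower, adjusted p 1.76e-04), and ethanol raised it by 1.73 on HFD (adjusted p 0.00321). Insig2 was higher in HFD (1.36, adjusted p 0.0159). Mid1ip1, a paralog of Thrsp whose product activates acetyl-CoA carboxylase, rose in 1B by 1.21 (adjusted p 0.00106). Nr1h3, which encodes LXR alpha, differed by -1.22 with ethanol on HFD (SE 0.10, adjusted p 2.75e-06), a fall.

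Cholesterol genes moved in part the other way, and glycerolipid genes moved in both directions. Of 11 glycerolipid genes, 1 was lower in 1B, the phosphatidate phosphatase Lpin2 (-1.47, adjusted p 0.0396), 2 were higher in HFD, Mogat1 (1.01, adjusted p 4.91e-04) and Lpin3 (0.62, adjusted p 0.00998), and ethanol on HFD raised 2, led by Lpin1 (2.19, SE 0.34, adjusted p 4.66e-04), and lowered 2, led by Lpin2 (-1.07, adjusted p 0.0499). Of the 11 glycerolipid differences, 8 were positive in 1B and 8 with ethanol on HFD. Of all genes, 2.09% were higher and 2.05% lower in 1B, and 4.5% and 6.48% in HFD. With ethanol on HFD the shares were 11% and 8.4%, and 2 raised and 2 lowered of 11 are not far above them. Of 20 genes of cholesterol synthesis and uptake, 1 was higher and 4 lower in 1B, led by Msmo1 (-1.87, adjusted p 7.22e-05). In HFD 4 were higher, led by Hmgcs1 (1.24, adjusted p 0.0191) and Fdps (1.23, adjusted p 0.00519). With ethanol on HFD 1 was higher and 10 lower, led by Msmo1 (-1.59, adjusted p 9.37e-05) and Idi1 (-1.27, adjusted p 0.00504). The median of this list with ethanol on HFD was -0.59, against 0.50 for the lipogenesis genes and 0.01 for all genes.

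**Figure D4:**
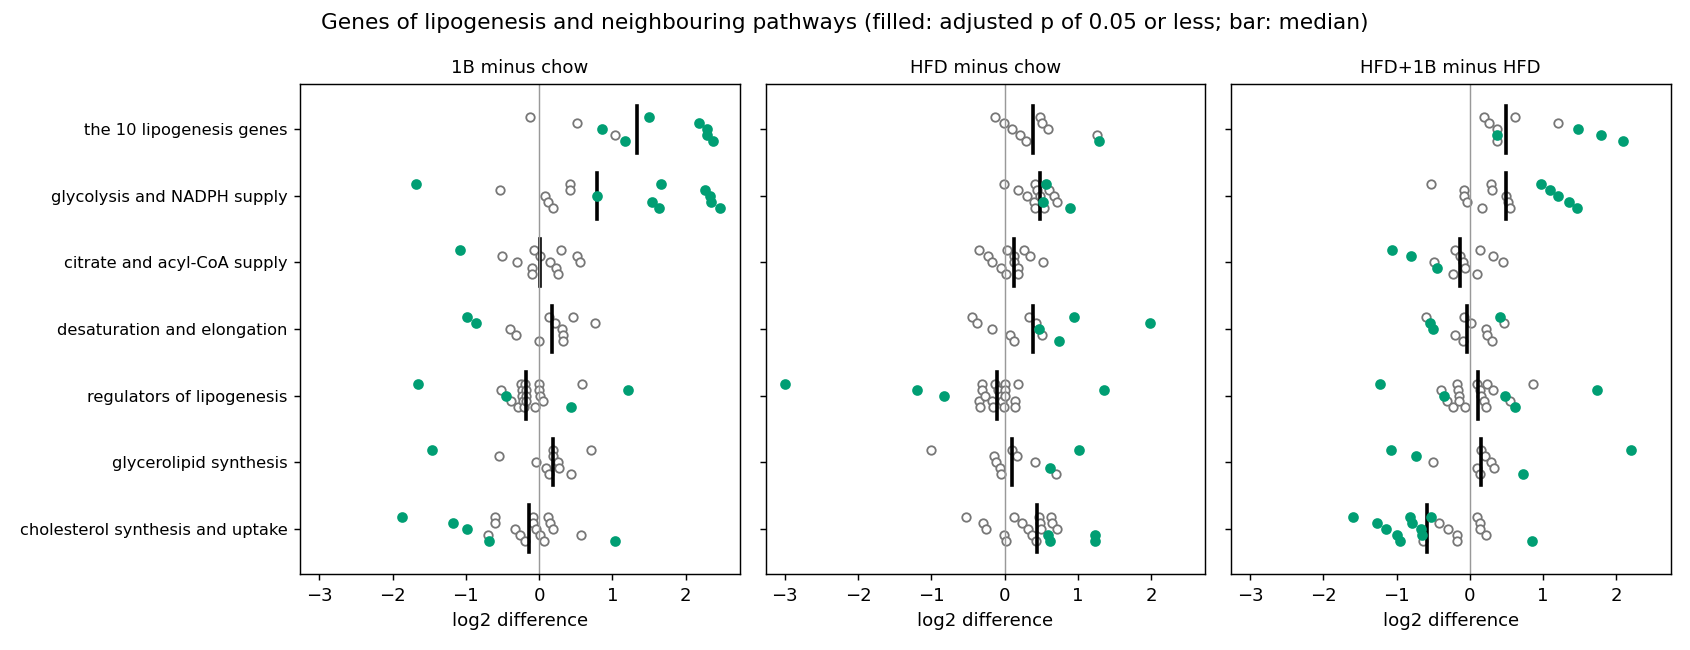
Log2 difference (x axis) of each gene (points) of the 10 lipogenesis genes and of 6 neighboring lists (rows) in 3 comparisons. Filled points passed at an adjusted p of 0.05 or less and the black bar is the list median. In 1B the median was 1.34 for the lipogenesis genes and 0.78 for glycolysis and NADPH supply, and between -0.18 and 0.19 for the other lists.

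The tissue carried the RNA of hepatocytes, with all 8 hepatocyte markers tested well above background on all 17 arrays. Adipocytes also express lipogenic enzymes, and all 6 adipocyte markers were tested, with Lep above background on 15 arrays and the others on 17. The mean log2 ratio of the adipocyte list relative to chow spanned -0.36 to 0.32 among the chow mice, -0.25 to -0.03 with ethanol on chow, 0.11 to 0.44 with HFD alone, and -0.22 to 0.18 with both, and 0 of its 6 genes passed in 1B compared with chow or in HFD+1B compared with HFD. Over all genes 4.13% and 19.4% passed in these comparisons, in that order. The hepatocyte list spanned -0.20 to -0.08 with ethanol on chow, -0.61 to -0.25 with HFD alone, and -0.30 to 0.18 with both, with 2 of 8 genes lower and 0 higher in HFD. In HFD compared with chow 6.48% of all genes were lower and 4.5% higher. In 1B the mean of the endothelial list lay at 0.15 to 0.34, wholly above chow (-0.08 to 0.09). Only 1 of its 5 genes had a positive difference, and that gene passed (2.09% of all genes were higher). The median of the 5 was -0.03, so the list mean there rests on 1 gene. The hepatocyte list in 1B lay just below chow (-0.08 to 0.20), with 0 of its 8 genes passing. The remaining lists overlapped with chow there, the stellate cell list at 0.09 to 0.14, the neutrophil list at -0.13 to 0.29, and the macrophage list at -0.16 to 0.09. For HFD and for HFD+1B, in that order, the macrophage list was at 0.34 to 0.61 and 0.37 to 0.72, the stellate cell list at 0.32 to 0.57 and 0.14 to 0.90, the endothelial list at 0.28 to 0.50 and 0.14 to 0.43, and the neutrophil list at -0.25 to 0.32 and 0.15 to 0.52. These are means, and single genes differed. In HFD+1B compared with chow, only 3 of the 10 neutrophil genes had a positive difference, and those 3 passed. The median of the 10 was -0.04. Of the 5 endothelial genes, 1 was higher and 2 lower there. Of all genes, 8.89% were higher and 7.41% lower. The part of these shifts in the lipogenesis results was not tested.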

How the data were processed

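Each of the 17 arrays was scanned by the authors, who extracted spots with Agilent Feature Extraction 11.5.1.1 (version from the submitters' processing notes). Their scanner files, as deposited, hold unnormalized median signal and local background per spot as intensity. The authors' table of log2 ratios of liver (Cy5) over reference (Cy3) equals the log2 ratio of their dye-normalized processed signals to within 2.74e-06 over 40929 probes with 1 spot, and it served for gene symbols and as an alternative. All value columns could be mapped to mice (0 left over).

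From the scanner files, signals were corrected with normexp (offset 50), outlier-marked spots were dropped, each array was normalized with loess, and repeated spots of a probe were averaged, all with limma 3.58.1 in R 4.3.3. A probe was tested if the scanner called its Cy5 signal well above background on 4 or more of the 17 arrays and each group had a value (34650 probes). The offset pulls the ratio of a dim probe toward 0, and the number of arrays limits precision. Without a dye swap, any dye bias of a probe enters every group alike. Reference RNA is labeled both as assorted mouse RNA and as liver.

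All 17 arrays entered 1 limma fit (lmFit and eBayes) of 4 group means, with 13 residual degrees of freedom for a probe with a value on all 17, and 6 contrasts. A probe passed at 0.05 or less after Benjamini-Hochberg adjustment across the whole set tested, and "higher" or "lower" with a count means passed. Where a spot was dropped, its mouse is missing from that gene's fit. Each gene is represented by its probe brightest in Cy5. Samples were grouped by their labels, each a liver of 1 mouse. The fitting code was tested on simulated data.

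The genes named are the 10 lipogenesis genes, the 2 largest called changes of each list in 1B minus chow, HFD minus chow, and HFD+1B minus HFD, and the 5 genes most like Fasn and like Srebf1 by Pearson r. Some genes that this rule names are not reported here. Members and lists were chosen with earlier results of these data known. Alternatives were other background corrections, median centring, Cy5 alone after quantile normalization, the authors' table, other filters on dim probes, marked spots kept, slide or replicate number as a block, the mean of a gene's probes, a 2-fold threshold at an unadjusted p of 0.05 or less, a Tukey test as in the study's methods, and leaving out each mouse. The array was designed on mm9, so no positions of probes are given, and promoter positions are those of GRCm38.p6.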

Additional observations from a re-analysis of the deposited data

Results flagged for a closer look

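Elovl6 (probe A_51_P463440) responded differently to ethanol on chow and on HFD, with an interaction of -2.12 on the log2 scale. The same was found for the second Mlxipl probe (A_52_P423188, -0.79) and for 1 of the dimmer Acaca probes (A_52_P318040, -1.40), whereas the brightest probes of Mlxipl and Acaca did not pass. In Acacb, HFD+1B mouse 1 lay far below the other 4 mice of its group, with a gap of 0.774 of the group's whole range. Of 35 groups examined for such a mouse, 1 was found, and chance gives about 1 in 20 groups, or 1.75.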

How the results depend on the processing

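With Cy5 alone, the number of the 10 genes that passed was 4 in place of 7 for 1B minus chow, 4 in place of 7 for HFD+1B minus chow, 0 in place of 1 for HFD minus chow, and 1 in place of 2 for HFD+1B minus 1B. The Tukey test with Benjamini-Hochberg adjustment gave 4 for HFD+1B minus chow and 0 for HFD minus chow. HFD minus chow had 2 genes with the 2-fold threshold, which also gave 2 interactions in place of 1. HFD+1B minus 1B had 4 in place of 2 with marked spots kept and 4 with the mean of a gene's probes. Leaving out 1 mouse at a time gave 5 to 8 genes for 1B minus chow, 0 to 3 for HFD minus chow, 5 to 10 for HFD+1B minus chow, 3 to 5 for HFD+1B minus HFD, 2 to 3 for HFD+1B minus 1B, and 1 to 1 for the interaction. The 10 were reached without HFD+1B mouse 1, the 0 without chow mouse 1 or 2 or HFD mouse 3 or 4, and the 3 for HFD minus chow without chow mouse 3. The interaction had 3 genes with slide as a block and 2 with the mean of a gene's probes. The sample titles number the mice within a group and name no pairs. Deviations from the group mean correlated at -0.13 to 0.48 in 24 same-numbered pairs (mean 0.16, against -0.04 for other numbers). On the same slide the mean was 0.16 in 21 pairs, against -0.04 for other slides, and numbers and slides coincide in part. Arrays that shared a number or slide were thus slightly alike on average, and the main fit had neither as a block. With the replicate block 2 genes had an interaction in place of 1, the other counts being 7, 1, 7, 4, and 2 as without it. Acaca reversed in HFD+1B minus 1B, from 0.06 to -0.47 with the mean of its probes. In 32 of the other comparisons of a gene under an alternative the sign differed from the main value with neither passing. Over all genes, 800 passed in 1B minus chow, against 167 with Cy5 alone, 499 with the authors' table, 518 with median centring, 205 at 2-fold, and 1386 and 197 by the Tukey test without and with adjustment. For HFD minus chow these were 2124 against 756 with Cy5 alone, 376 at 2-fold, and 320 by the adjusted Tukey test, for HFD+1B minus chow 3154 against 1147, 587, and 1386, for HFD+1B minus HFD 3747 against 1196, 409, and 1076, and for HFD+1B minus 1B 2211 against 589, 369, and 592. The interaction passed in 850 genes, 154 with Cy5 alone, 436 at 2-fold, and 1737 with the replicate block. Leaving out 1 mouse gave 457 genes for 1B minus chow without chow mouse 3 (478 without chow mouse 4, 489 without 1B mouse 1), 1150 for HFD minus chow without HFD mouse 3 (1365 and 1228 without chow mouse 1 or 4), and 2488 for HFD+1B minus HFD without HFD mouse 4. For the interaction it gave 398 without chow mouse 4, and 429 to 551 without chow mouse 1 or 3, 1B mouse 1 or 2, HFD mouse 3 or 4, or HFD+1B mouse 4. The causes were not tested. The dimmest of the 18 probes, the second Acly probe, had a mean Cy5 intensity of 97.1, against array medians of 63 to 158, and small differences are hard to measure at such signals.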
